A study of Mus musculus with 6 samples.

Results

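The T-box genes examined here were Tbx1, Tbx2, Tbx3, Tbx4, Tbx5, Tbx15, Tbx18 and Tbx20, 8 of the 32285 genes in the count tables, chosen by symbol and followed in all cells of 6 single-cell RNA sequencing libraries of autonomic ganglia. All libraries came from mouse pups of postnatal day 5 that carried a Cre driver and the RosatdT allele, in which Cre switches on the red reporter tdTomato. Every group carried both alleles, and no group was treated. The groups were the stellate ganglion (paravertebral sympathetic chain, 1 library), the lumbar chain (also paravertebral, 1 library), the coeliac ganglion (prevertebral sympathetic, 1 library), the sphenopalatine ganglion (parasympathetic, 1 library) and the pelvic ganglion (2 libraries), and the study asked to which division the pelvic ganglion belongs. Whole ganglia were dissociated without sorting, so each library also held glia, fibroblasts and vessel cells, and nothing in the labels gives the number of pups behind a library. The stellate, sphenopalatine and first pelvic libraries (round 1) were made with kit version 2 and about 10000 loaded cells, and the coeliac, lumbar and second pelvic libraries (round 2) with kit version 3 and about 5300 loaded cells at another facility. Values were therefore compared within a round, and the pelvic ganglion is given per library, as pelvic 1 and pelvic 2.

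T-box proteins share a DNA-binding domain, the T-box, and act as transcription factors that set regional and cell-type identity in the embryo. Tbx2 and Tbx3 are close relatives known mainly as repressors, Tbx20 acts in the heart and in cranial motor neurons, Tbx18 in the epicardium and in the mesenchyme that forms smooth muscle of the ureter, Tbx15 in skeletal and dermal mesenchyme, Tbx1 in the pharyngeal arches and in endothelium, Tbx5 in the heart and forelimb, and Tbx4 in the hindlimb. Sympathetic neurons are otherwise known by factors such as Hand2, Gata3, Isl1 and Hmx1, and none of the members belongs to that textbook set.

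In the mouse annotation (GENCODE M21, GRCm38), 2 pairs of members lie side by side on the same strand. Tbx2 (chr11:85832551-85841948, plus strand) precedes Tbx4 (chr11:85886422-85916097), and Tbx3 (chr5:119670669-119684724, plus strand) precedes Tbx5 (chr5:119832668-119885219). Tbx18 (chr9:87702800-87731260) and Tbx20 (chr9:24718138-24774303) are both on the minus strand of chromosome 9, Tbx1 is at chr16:18580979-18590671 on the minus strand and Tbx15 at chr3:99240381-99354259 on the plus strand. The antisense gene Tbx3os1 (chr5:119570130-119671365, minus strand) overlaps the start of Tbx3. The last 1000 bases of the members' transcripts, where 3′ tags fall, shared 0 runs of 25 bases, so reads of one member could not be taken for another through an identical stretch of that length.

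The 250 bases before an annotated start are shown for 3 members with most of their UMIs in different cell types. These were neurons for Tbx20, fibroblast-like cells for Tbx18 and endothelial-like cells for Tbx1. They are RefSeq sequence of GRCm38.p6, read 5′ to 3′ on the gene's strand, and capitals mark matches on either strand to the T-box core AGGTGT, the homeodomain core TAATTA, the GATA core AGATAA or the E-box CANNTG.
Tbx20 (chr9:24774304-24774553, minus strand): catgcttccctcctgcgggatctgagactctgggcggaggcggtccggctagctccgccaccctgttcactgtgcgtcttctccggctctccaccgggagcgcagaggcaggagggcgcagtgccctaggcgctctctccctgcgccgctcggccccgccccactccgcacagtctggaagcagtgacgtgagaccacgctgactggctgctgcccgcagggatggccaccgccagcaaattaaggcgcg
Tbx18 (chr9:87731261-87731510, minus strand): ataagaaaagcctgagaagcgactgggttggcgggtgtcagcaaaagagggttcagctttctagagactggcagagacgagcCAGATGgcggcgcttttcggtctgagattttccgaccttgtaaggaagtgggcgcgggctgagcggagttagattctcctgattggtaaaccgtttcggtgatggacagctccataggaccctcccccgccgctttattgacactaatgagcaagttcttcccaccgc
Tbx1 (chr16:18590672-18590921, minus strand): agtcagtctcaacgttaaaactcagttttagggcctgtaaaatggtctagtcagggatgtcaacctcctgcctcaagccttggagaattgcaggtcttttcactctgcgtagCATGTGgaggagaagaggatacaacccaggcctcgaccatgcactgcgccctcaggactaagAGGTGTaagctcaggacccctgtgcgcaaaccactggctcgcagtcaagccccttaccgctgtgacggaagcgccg
The Tbx20 window held none of the 4 motifs and had a GC content of 68.8%, against a median of 52.4% over 32851 promoters. The Tbx18 window held 1 E-box, CAGATG, starting 168 bases before the start, and its GC content was 54%. The Tbx1 window held the T-box core 76 bases and an E-box 138 bases before the start, at 54.4% GC. The window before another annotated Tbx1 start (chr16:18588900-18589149) held none of the 4 motifs and had a GC content of 67.2%. Over all promoters the T-box core was found in 11.83%, the homeodomain core in 4.84%, the GATA core in 9.988% and the E-box in 66.22% of windows. Entries were matched for 4 of the 8 members, the fourth being Tbx4.

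The filtered tables held from 39353313 UMIs (unique molecular identifiers, each standing for 1 captured RNA molecule) in the coeliac library to 113352559 in the stellate library. After the cell filters 21442 cells were kept, of which 7052 were neurons by the study's neuronal marker threshold and a glial marker threshold set here. Neurons per library numbered 2724 (stellate), 1903 (sphenopalatine), 893 (pelvic 1), 237 (coeliac), 930 (lumbar) and 365 (pelvic 2), with median depths from 26651 to 108600 UMIs, lowest in the stellate and highest in the pelvic 2 library. Pairs of libraries shared 0 to 49 barcodes, none with the same profile. The other cells were clustered without any T-box gene, and clusters are called glia-like, fibroblast-like and so on where their markers allowed it. A level is the gene's UMIs per 1000000 UMIs (CPM) of all cells of a class summed, with an exact 95% Poisson interval, and a share of cells with a UMI has a 95% Wilson interval. These intervals cover counting error only and say nothing of variation between animals.

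Over all kept cells Tbx3 had 26668 UMIs, Tbx2 25397, Tbx20 10047, Tbx18 1798, Tbx1 157, Tbx15 125, Tbx5 21 and Tbx4 13. By share of UMIs, the members divided into a set found mostly in neurons and a set found mostly in other cells. Neurons held 93.1% of the UMIs of Tbx20, 88.8% of those of Tbx3 and 81.6% of those of Tbx2. Fibroblast-like cells held 91.3% of the UMIs of Tbx18, 64.8% of Tbx15 and 76.2% of Tbx5, and endothelial-like cells held 72.6% of those of Tbx1. These shares follow the number and depth of the cells in each class as well as the level per cell, so the levels by class and library are given next.

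**Figure D1:**
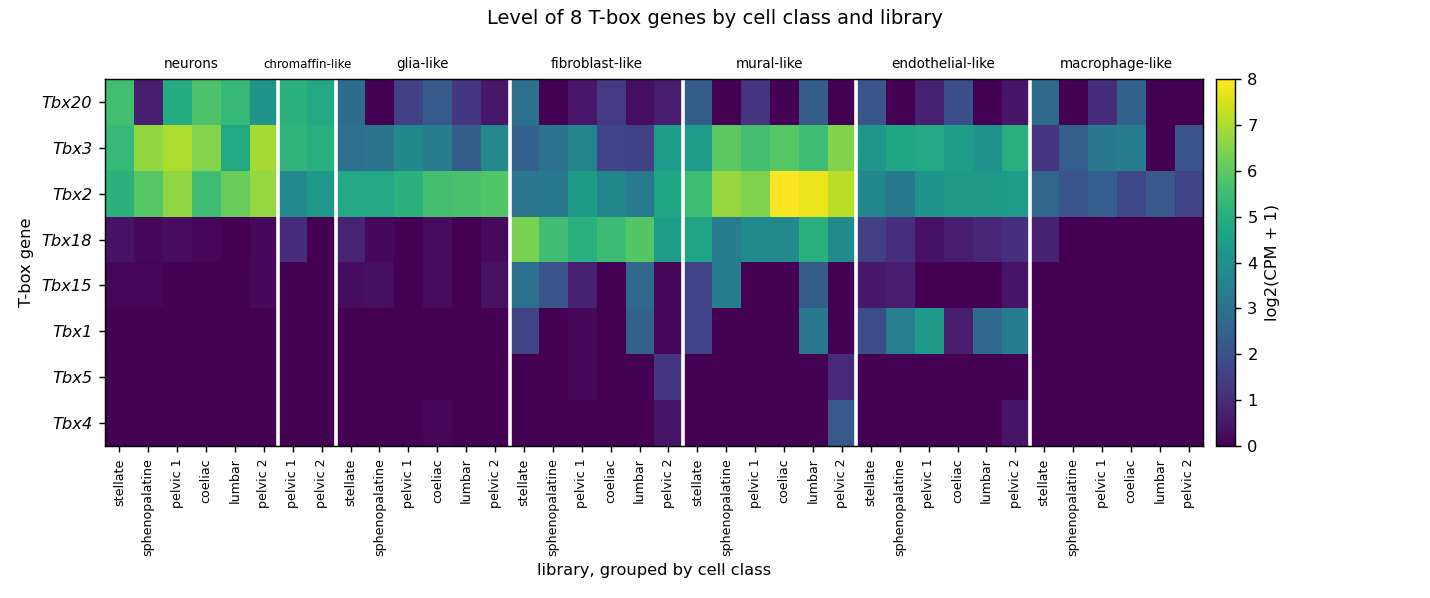
Level of each of the 8 T-box genes (rows) in each cell class and library (columns), as colour on a log2(CPM + 1) scale. Tbx20 is bright in neurons of every library except the sphenopalatine one and in the chromaffin-like cells of both pelvic libraries, Tbx2 and Tbx3 are bright in neurons and mural-like cells, and Tbx18 in fibroblast-like cells.

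Tbx20 was the member that differed most between ganglia in neurons. The study picked it from these same libraries for its distribution over ganglia. It listed a Tbx20 probe for in situ hybridization on embryonic sections, and by that method reported sympathetic but not parasympathetic markers in pelvic cells. The Tbx20 levels given here are therefore a description without a test. In round 1 its level was 47.0 CPM in stellate neurons (interval 45.5 to 48.5), 30.1 CPM in pelvic 1 neurons (28.4 to 32.0) and 0.592 CPM in sphenopalatine neurons (0.432 to 0.792), the last from 45 UMIs in 1903 cells. In round 2 it was 53.0 CPM in coeliac neurons (49.7 to 56.5), 40.1 CPM in lumbar neurons (38.6 to 41.5) and 16.8 CPM in pelvic 2 neurons (15.5 to 18.2). In both rounds the pelvic level lay below every sympathetic level with intervals that did not overlap, and in round 1 the sphenopalatine level lay below those of stellate and pelvic 1 neurons. At least 1 Tbx20 UMI was seen in 62.0% of stellate, 48.0% of pelvic 1 and 1.94% of sphenopalatine neurons, and in 78.1% of coeliac, 77.0% of lumbar and 44.9% of pelvic 2 neurons. Neurons of at least 4000 UMIs were also thinned to that depth, and shallower ones were left out. The shares with a Tbx20 UMI were then 16.0%, 9.08% and 0.317% in round 1 and 17.7%, 15.3% and 5.44% in round 2, in the same order.

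Tbx20 was also found in glia-like, fibroblast-like, mural-like, endothelial-like and macrophage-like cells, at levels below those of the neurons of the same library. The sphenopalatine library had no Tbx20 UMI in any of these classes. Glia-like cells had 6.17 CPM in the stellate, 0 in the sphenopalatine (at most 0.396 CPM, taking 3 UMIs as the upper limit of a count of 0), 1.96 in the pelvic 1, 3.77 in the coeliac, 1.38 in the lumbar and 0.427 in the pelvic 2 library. These levels moved with the definition of the cells, and glia gated by markers alone had 9.64 CPM in the stellate and 7.21 CPM in the pelvic 1 library. In macrophage-like cells, which are not known to carry neuronal genes, 3.31% of stellate and 7.41% of coeliac cells had a Tbx20 UMI, against 0 to 0.855% in the other libraries. In the marker-gated glia used for the tests, all 6 neuron markers stood above 10 CPM in every library, and their summed level ran from 725.7 CPM (pelvic 2) to 3305 CPM (stellate). The part of such neuronal RNA in the non-neuronal Tbx20 levels was not tested.

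Chromaffin-like cells, which carry the catecholamine enzymes and chromogranins of adrenal medulla-type cells, formed a cluster of 204 cells, of which 147 came from pelvic 1 and 31 from pelvic 2, and the cells of the other libraries were too few (under 20 each) for a level. They were named from 5 of their 6 markers, and Pnmt, the enzyme that makes adrenaline, was not among those 5. Tbx20 was at 32.2 CPM over the cluster (62 UMIs), 33.4 CPM in pelvic 1 (33 UMIs) and 27.1 CPM in pelvic 2 (16 UMIs), and Tbx3 at 36.4 and 32.2 CPM. Tbx2 was at 13.1 and 18.6 CPM, well below its level in the neurons of the same libraries.

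Tbx3, a repressor known from heart conduction tissue and limb, had another order of ganglia. In round 1 it was at 127 CPM in pelvic 1 neurons (124 to 131), 103 CPM in sphenopalatine neurons (101 to 105) and 39.9 CPM in stellate neurons (38.6 to 41.4). In round 2 it was at 119 CPM in pelvic 2 neurons (115 to 123), 90.3 CPM in coeliac neurons (86.0 to 94.8) and 27.7 CPM in lumbar neurons (26.5 to 29.0). Pelvic neurons were thus highest and the paravertebral neurons of the stellate ganglion and lumbar chain lowest of their rounds, the parasympathetic and the prevertebral neurons lying between. The share of neurons with a Tbx3 UMI was 91.4%, 84.0% and 43.0% in round 1 and 84.7%, 67.5% and 34.2% in round 2, in the same orders. Thinned to 4000 UMIs, it was 38.9%, 32.0% and 12.0% and then 34.1%, 23.7% and 7.42%. Macrophage-like cells with a Tbx3 UMI made up 0% (lumbar, at most 7.14% by the limit of 3 cells) to 11.1% (coeliac).

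Tbx2, the nearest relative of Tbx3, was detected in neurons of every ganglion. In round 1 it was at 99.9 CPM in pelvic 1 neurons (96.7 to 103), 60.0 CPM in sphenopalatine neurons (58.3 to 61.8) and 33.9 CPM in stellate neurons (32.6 to 35.2). In round 2 it was at 105 CPM in pelvic 2 neurons (102 to 108), 70.8 CPM in lumbar neurons (68.9 to 72.8) and 44.7 CPM in coeliac neurons (41.6 to 47.9). Pelvic neurons were again highest in both rounds. The lumbar and coeliac neurons stood in the reverse order of that for Tbx3, with lumbar above coeliac for Tbx2 and below it for Tbx3. From 52.2% (stellate) to 91.0% (pelvic 1) of neurons had a Tbx2 UMI, and from 12.1% to 34.1% after thinning, the stellate neurons lowest both times and the pelvic 2 neurons highest after thinning.

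**Figure D2:**
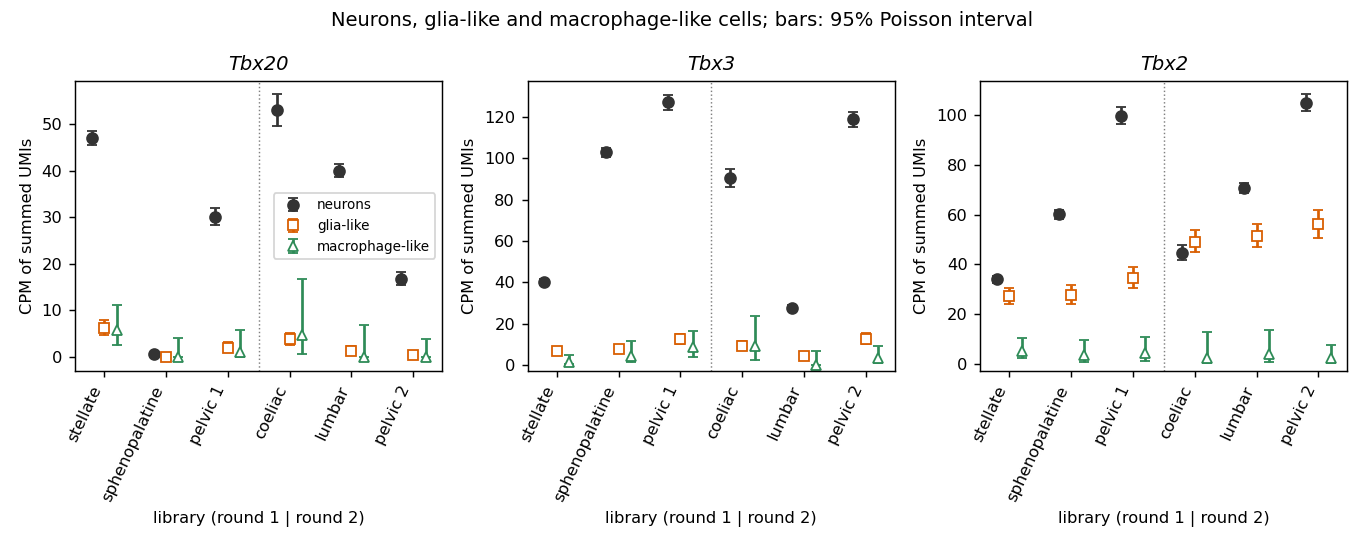
Level (CPM of summed UMIs, y axis) of Tbx20, Tbx3 and Tbx2 in neurons (filled circles), glia-like cells (squares) and macrophage-like cells (triangles) of each library, with 95% Poisson intervals and a dotted line between the rounds. Neuronal Tbx20 is at 0.592 CPM in the sphenopalatine library and at 16.8 CPM or more elsewhere, and coeliac is the library in which the Tbx2 level of glia-like cells is above that of neurons.

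The other 5 members were at trace level in neurons. Tbx18 ran from 0.0138 CPM (lumbar) to 0.302 CPM (stellate), Tbx15 from 0 to 0.135 CPM, and Tbx1, Tbx4 and Tbx5 reached at most 2 UMIs in the neurons of any library. Clusters of 203, 108 and 45 cells carried 6 neuron markers but did not pass the neuron threshold, and they enter none of these neuron levels. The cluster of 45 cells, 95.6% from pelvic 1, had 4 UMIs of Tbx1 (2.53 CPM).

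Neurons were compared with glia within each library, on 12 sums of counts over marker-gated cells that no T-box gene helped to choose. Of the 13875 genes tested, 74.2% were called at an adjusted p under 0.05, 36.4% as higher in neurons. The 3 members with enough counts, Tbx2, Tbx3 and Tbx20, were all called higher in neurons, and the other 5 members were too low to be tested, so that count says little beside this background. Cells are not replicates, and the p-values measure the spread between these 6 libraries.

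Tbx3 was higher in neurons than in glia in 6 of 6 libraries, at 27.7 to 127 CPM against 4.90 to 22.4 CPM without overlap. The log2 fold change was 2.78 (SE 0.15, n = 6 libraries, edgeR quasi-likelihood test, adjusted p = 3.94e-06). Its antisense gene Tbx3os1 differed in the same direction (8.07, 16.0, 26.4, 15.8, 5.50 and 22.2 CPM in stellate, sphenopalatine, pelvic 1, coeliac, lumbar and pelvic 2 neurons), with a log2 fold change of 2.91 (SE 0.25, edgeR adjusted p = 2.51e-05). The neuronal levels of Tbx3os1 stood in the same order of ganglia within each round as those of Tbx3. Tbx3os2, which lies just beyond the end of Tbx3 on the other strand, had a log2 fold change of 2.61 (SE 0.51, edgeR adjusted p = 0.00193) at 0.190 to 5.18 CPM in neurons.

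Tbx20 was higher in neurons than in glia in 6 of 6 libraries. The values were 47.0 against 9.64 CPM (stellate), 0.592 against 0 CPM (sphenopalatine, where the limit for glia is 0.541 CPM), 30.1 against 7.21 CPM (pelvic 1), 53.0 against 3.78 CPM (coeliac), 40.1 against 1.31 CPM (lumbar) and 16.8 against 0.928 CPM (pelvic 2). The log2 fold change was 3.37 (SE 0.41, n = 6 libraries, edgeR adjusted p = 0.000149). The sphenopalatine values are both close to the limit, so that library says little about the difference.

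Tbx2 differed least. Its values were 33.9 against 29.8 CPM (stellate), 60.0 against 31.0 (sphenopalatine), 99.9 against 58.7 (pelvic 1), 44.7 against 50.2 (coeliac), 70.8 against 50.9 (lumbar) and 105 against 56.0 (pelvic 2). Neurons were thus higher in 5 of 6 libraries and the ranges of the groups overlapped. The log2 fold change was 0.56 (SE 0.17, n = 6 libraries, edgeR adjusted p = 0.0184). The call was lost without pelvic 1 (log2 fold change 0.50, edgeR adjusted p = 0.0526), without pelvic 2 (0.48, adjusted p = 0.0559), in round 2 alone (0.51, adjusted p = 0.121) and without the library as a block (0.63, adjusted p = 0.0695). In glia-like cells as clustered, the Tbx2 level ran from 27.2 to 34.6 CPM in round 1 and from 49.1 to 56.0 CPM in round 2, without overlap. These cells included myelinating Schwann-like cells. The larger cluster of these, 784 cells and 71% from pelvic 1, had 21.8 CPM, against 42.3 CPM in a glia-like cluster almost all from pelvic 1. In the gated glia the rounds overlapped, as pelvic 1 had the highest value of all. With the level taken as a mean over cells, coeliac neurons were above glia-like cells, at 53.5 against 46.7 CPM.

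The genes around the family gave a frame for these values. Of the 11 listed partners of T-box proteins 6 could be tested between neurons and glia. Hand2, Tle2, Tle4 and Tle5 were higher in neurons, the largest being Hand2 (log2 fold change 2.90), and the corepressor genes Tle1 and Tle3 were higher in glia, Tle3 the more so (-2.03). Mga, a T-box protein gene with a second DNA-binding domain and the 1 other T-box gene tested of 9, was slightly lower in neurons (-0.30, SE 0.11, edgeR adjusted p = 0.0362), a call lost with DESeq2's size factors (adjusted p = 0.0714). Its level also moved with the round, at 23.1 to 29.1 CPM in neurons of round 1 and 38.2 to 45.2 CPM in neurons of round 2.

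Tbx20 and Tbx3 were spread unevenly over the neurons of some ganglia. As a yardstick, the share of neurons without a UMI was calculated as if all neurons of a library made the gene at a single rate per UMI of depth. For Tbx3 in the lumbar chain, 65.8% of neurons had none where a single rate gave 21.9%, while 7.63% of neurons had 10 UMIs or more and the highest had 36. Coeliac neurons had no Tbx3 UMI in 32.5% of cells against 8.65% at a single rate, with 26.2% at 10 UMIs or more, and stellate neurons in 57.0% against 36.5%. The sympathetic neurons with no Tbx3 UMI were shallower, with a median depth of 59282 against 96880 UMIs in the lumbar library, and the part of depth beyond the single-rate calculation was not tested. Sphenopalatine and pelvic neurons had smaller gaps in Tbx3, the largest being 16.0% against 3.81% in the sphenopalatine ganglion. Their Tbx3 level was higher and fewer of them were at 0, so a smaller gap does not show a more even spread. The variance of Tbx3 UMIs over their mean was 2.94 (stellate), 3.23 (sphenopalatine) and 2.86 (pelvic 1) in round 1. In round 2 it was 13.2 (coeliac), 11.2 (lumbar) and 10.1 (pelvic 2).

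For Tbx20 the gap was widest in the pelvic ganglion. In pelvic 1 52.0% of neurons had no UMI against 31.7% at a single rate, and in pelvic 2 55.1% against 29.98%. In the sympathetic libraries it was narrower, at 38.0% against 31.4% (stellate), 21.9% against 15.0% (coeliac) and 23.0% against 14.7% (lumbar). For Tbx2 the gaps were narrower, the widest being 47.8% against 41.8% (stellate), and the narrowest 19.0% against 17.8% (coeliac) and 10.7% against 9.51% (pelvic 2). Where few neurons lack a UMI this share says little about the spread of a gene, and the Tbx2 level did differ between the pelvic clusters.

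**Figure D3:**
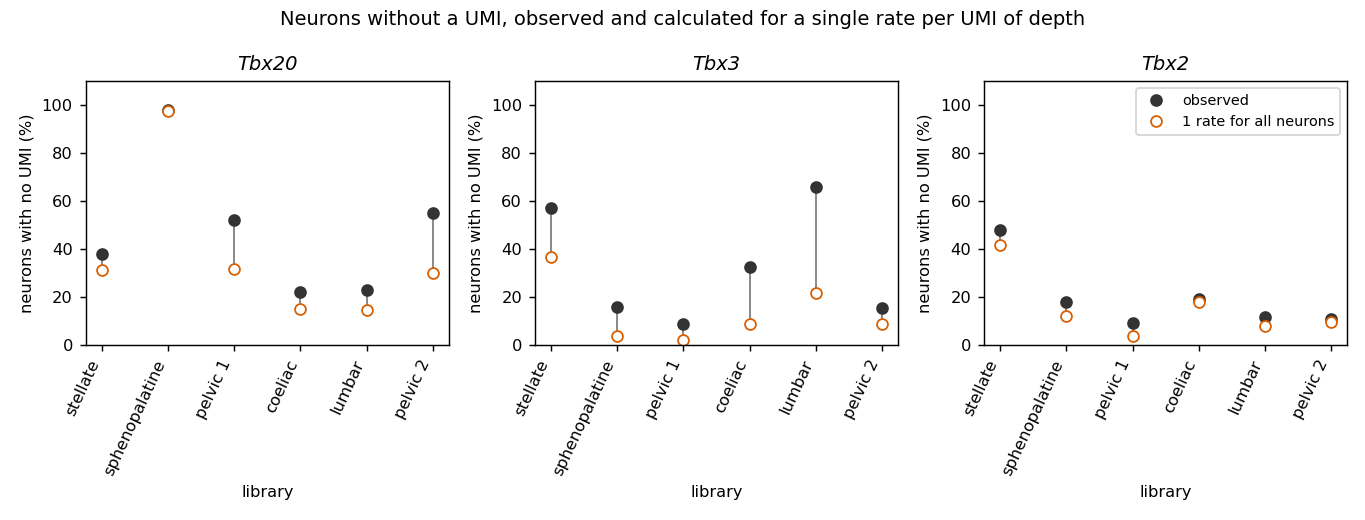
Share of neurons without a UMI (y axis, percent) of Tbx20, Tbx3 and Tbx2 in each library, as observed (filled) and as calculated for a single rate per UMI of depth in all neurons (open). The gap is widest for Tbx3 in lumbar neurons (65.8% against 21.9%), and it is also wide for Tbx3 in coeliac and stellate neurons and for Tbx20 in both pelvic libraries.

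The pelvic neurons fell into 6 clusters, computed without T-box genes. 4 of them are called P1-like to P4-like after the genes by which the study told its own pelvic clusters apart, and 2 are unnamed and known by their leading genes. The P1-like name rests on 3 raised marker genes, the fewest accepted, and the P2-like, P3-like and P4-like names on 5 each. P1-like cells were led by Cartpt and carried Vip, P2-like cells by Grp, P4-like cells by Calca, and P3-like cells by Th, Slc6a2 and Dbh, the noradrenergic genes. The Penk-led cluster could not be matched to P1, P2, P3 or P4 by their markers, and the Hbb-bs-led cluster carried red cell and fibroblast genes besides neuronal ones. As names and cells were rebuilt here, they need not match the study's clusters cell for cell. Both libraries held cells of every cluster, from 58 (P4-like) to 253 (P2-like) in pelvic 1 and from 12 (Hbb-bs-led) to 118 (P1-like) in pelvic 2.

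Tbx20 differed between pelvic clusters in the same way in both libraries. P3-like neurons were highest, at 60.0 CPM in pelvic 1 (interval 53.5 to 67.1) and 56.4 CPM in pelvic 2 (49.1 to 64.5), and P2-like neurons followed at 49.0 and 31.3 CPM. P4-like neurons had 22.8 and 15.4 CPM. P1-like neurons had only 2.88 (1.84 to 4.28) and 3.31 CPM (2.31 to 4.61), and the Penk-led cluster 2.34 (1.31 to 3.86) and 1.51 CPM (0.823 to 2.53). The intervals of P1-like and Penk-led neurons lay below those of all other clusters in each library, while their own intervals overlapped each other. In pelvic 1 these intervals lay above that of the sphenopalatine neurons of the same round. The shares of cells with a UMI over both libraries were 86.6% (P3-like), 75.1% (P2-like), 58.4% (P4-like), 12.2% (P1-like) and 11.6% (Penk-led), and after thinning to 4000 UMIs 18.3%, 13.4%, 9.09%, 0.604% and 0.952%. The P3-like level was above that of stellate neurons in round 1, and in round 2 it was above that of lumbar neurons, while its interval overlapped that of coeliac neurons.

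Tbx3 singled out another cluster. P4-like neurons, which carry Calca, had 25.8 CPM in pelvic 1 (19.7 to 33.1) and 6.80 CPM in pelvic 2 (4.26 to 10.3). Every other cluster had 99.6 to 167 CPM in pelvic 1 and 97.0 to 154 CPM in pelvic 2. A Tbx3 UMI was seen in 49.4% of P4-like neurons over both libraries against 88.4% to 95.1% in the others, and in 6.82% against 31.0% to 44.3% after thinning. The P4-like levels of pelvic 1 and pelvic 2 differed beyond their intervals, on 61 and 22 UMIs, and these libraries are of different rounds.

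Tbx2 singled out the noradrenergic cluster. P3-like neurons had 36.7 CPM in pelvic 1 (31.6 to 42.3) and 41.0 CPM in pelvic 2 (34.8 to 48.0). P1-like neurons had 77.3 and 90.6 CPM and Penk-led neurons 80.4 and 93.8 CPM, and P2-like, P4-like and Hbb-bs-led neurons were at 134 to 156 CPM in either library. Each cluster with low Tbx20, Tbx3 or Tbx2 was thus a different one, P1-like with Penk-led for Tbx20, P4-like for Tbx3 and P3-like for Tbx2. Since the clusters were built from these cells, their order is a description and no test was made.

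**Figure D4:**
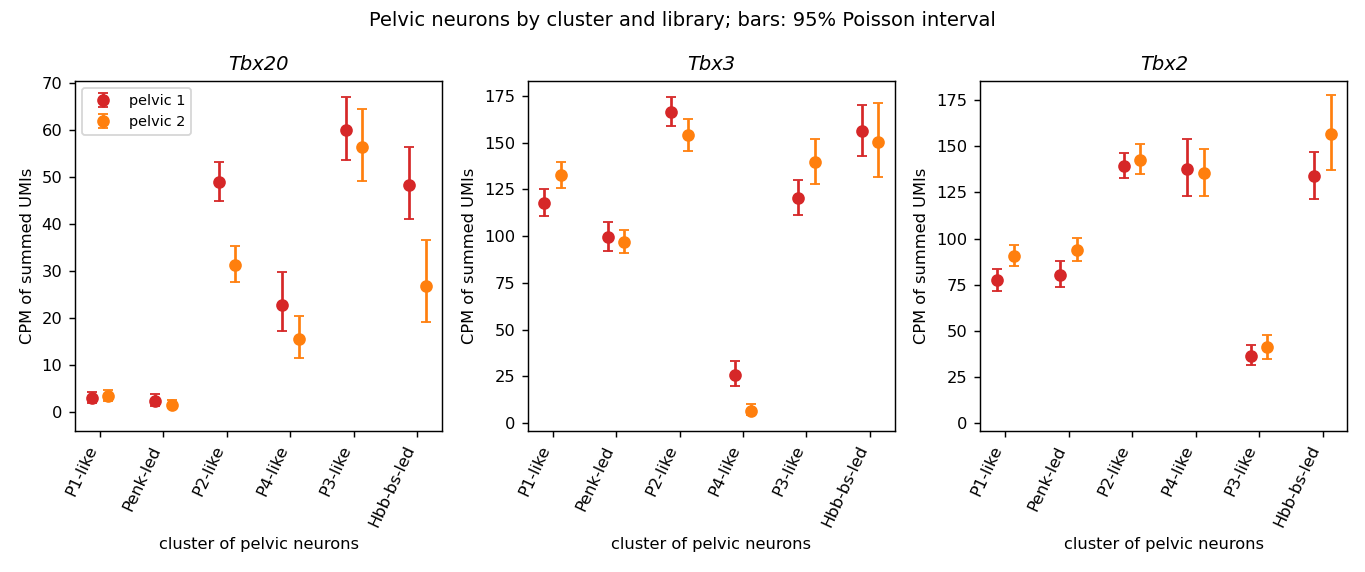
Level (CPM of summed UMIs, y axis) of Tbx20, Tbx3 and Tbx2 in the 6 clusters of pelvic neurons, with pelvic 1 in red, pelvic 2 in orange and 95% Poisson intervals. Tbx20 is low in P1-like and Penk-led neurons, Tbx3 in P4-like neurons and Tbx2 in P3-like neurons, in both libraries.

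Whether the members followed the transmitter was examined in the 4 libraries with at least 20 neurons of each kind, taking as noradrenergic the neurons with more UMIs of Th, Dbh and Slc18a2 than of the cholinergic genes Chat, Slc18a3 and Slc5a7, and as cholinergic the reverse. Of 13825 genes tested 0.246% (34 genes) were called, 0.0940% as higher in noradrenergic and 0.152% as higher in cholinergic neurons, and none of the 3 members tested was among them. The sums were uneven, of 41 noradrenergic and 1831 cholinergic neurons in the sphenopalatine and 895 and 21 in the lumbar library. At an unadjusted p under 0.05 Tbx20 and Tbx2 passed, and DESeq2 called none of the 3 members either.

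Tbx20 was at 56.7 CPM in noradrenergic and 25.4 CPM in cholinergic neurons of pelvic 1, and at 55.2 and 12.3 CPM in pelvic 2. In the lumbar chain it was at 41.3 CPM in noradrenergic neurons and had no UMI in the 21 cholinergic ones. The limit of 3 UMIs is 1.42 CPM there, 29.0-fold below the noradrenergic level. In the sphenopalatine ganglion it had 0 UMIs in the 41 noradrenergic neurons and 0.566 CPM in cholinergic ones. The same limit of 3 UMIs is 2.44 CPM there, above the cholinergic level, so that library gives no direction. Tbx20 was higher in noradrenergic neurons in 3 of 4 libraries, with a log2 fold change of 2.12 (SE 0.70, n = 4 libraries, edgeR adjusted p = 0.266).

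Tbx2 went the other way in 3 of the 4 libraries. Noradrenergic against cholinergic levels were 37.7 against 111 CPM (pelvic 1), 40.9 against 113 CPM (pelvic 2) and 69.5 against 114 CPM (lumbar), while the sphenopalatine library had 69.0 against 59.6 CPM. The log2 fold change was -0.91 (SE 0.30, n = 4 libraries, edgeR adjusted p = 0.265). Without the sphenopalatine library it was -1.25 and passed the threshold (edgeR adjusted p = 0.0437).

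Tbx3 showed no steady direction, with 120 against 102 CPM (sphenopalatine), 121 against 128 CPM (pelvic 1), 27.4 against 37.9 CPM (lumbar) and 138 against 117 CPM (pelvic 2) and a log2 fold change of -0.02 (SE 0.14, n = 4 libraries, edgeR adjusted p = 0.987). Within round 2 the level of Tbx3 in noradrenergic neurons was lower in the lumbar than in the pelvic 2 library. No tested partner, antisense or other T-box gene was called.

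Outside the neurons, Tbx18 was chiefly a fibroblast gene. Its level there was 82.8 CPM (stellate), 46.1 (sphenopalatine) and 32.6 (pelvic 1) in round 1, and 58.4 (lumbar), 43.7 (coeliac) and 21.4 CPM (pelvic 2) in round 2. The pelvic libraries were the lowest of their rounds, and the paravertebral libraries the highest. Mural-like cells were named by pericyte and smooth muscle markers and were not all shown to be of vessels. They had 9.36 to 32.8 CPM from 5 to 20 UMIs per library, and glia-like cells at most 0.685 CPM. In clusters of fibroblast-like cells Tbx18 ran from 13.8 CPM (a cluster led by Clec3b and Dpt, 91.6% from pelvic 1) and 15.3 CPM (led by Dcn and Igfbp6, 72.0% from pelvic 2) to 84.5 CPM (led by Ccl11 and Lum, 98.4% from the stellate library). In 7 of the 9 clusters most cells came from a single library, so cluster and library cannot be told apart there.

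**Figure D5:**
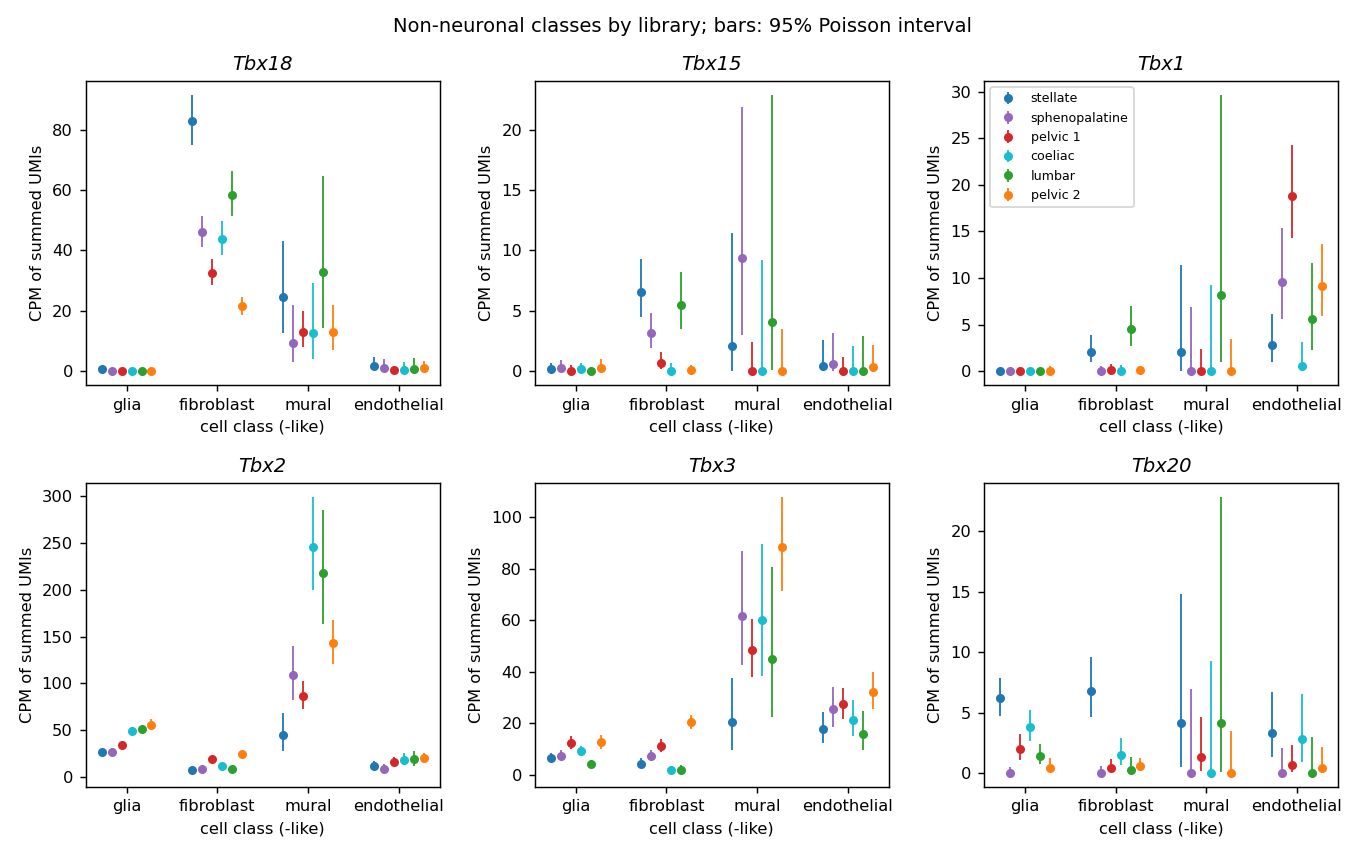
Level (CPM of summed UMIs, y axis) of 6 T-box genes in glia-, fibroblast-, mural- and endothelial-like cells, with each library as a coloured point and its 95% Poisson interval. Tbx18 lies highest in fibroblast-like cells, Tbx2 and Tbx3 in mural-like cells, and Tbx20 stays at or below 6.78 CPM in every class as clustered (9.64 CPM in gated glia).

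Marker-gated cells were compared between classes within libraries, and 5 members could be tested. Glia, fibroblasts, mural and endothelial cells were fitted together in a shared model. The standard errors and p-values of a contrast thus draw on the spread of all these classes. In fibroblasts against glia, where 56.3% of 12906 genes were called, 27.2% as higher in fibroblasts and 29.1% as higher in glia, Tbx18 and Tbx1 were called higher and Tbx2 lower. Tbx18 was at 20.5 to 77.4 CPM in fibroblasts and 0 to 0.283 CPM in glia of 6 libraries without overlap, with a log2 fold change of 8.46 (SE 0.34, n = 6 libraries, edgeR adjusted p = 1.5e-14). In mural cells against fibroblasts, where 33.6% of genes were called, 13.9% as higher in mural cells and 19.8% as higher in fibroblasts, it was lower in mural cells in 6 of 6 libraries, with a log2 fold change of -1.49 (SE 0.28, edgeR adjusted p = 0.000239). That call was lost in round 2 alone (-0.92, edgeR adjusted p = 0.162). Against glia, where 39.8% of genes were called, 17.6% as higher in mural cells, mural cells were higher in Tbx18 in 6 of 6 libraries (log2 fold change 6.97, SE 0.54, edgeR adjusted p = 9.39e-10).

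Tbx2 and Tbx3 were higher in mural cells than in fibroblasts and glia. Gated mural cells had 50.3 (stellate), 129 (sphenopalatine), 72.7 (pelvic 1), 288 (coeliac), 224 (lumbar) and 161 CPM (pelvic 2) of Tbx2, against 8.51 to 23.4 CPM in fibroblasts. The groups did not overlap, and the log2 fold change was 3.18 (SE 0.30, n = 6 libraries, edgeR adjusted p = 2.45e-08), and 1.66 against glia (SE 0.28, edgeR adjusted p = 4.49e-05). Tbx3 was at 43.1 to 100.0 CPM in mural cells and 1.91 to 32.5 CPM in fibroblasts, with a log2 fold change of 2.63 (SE 0.32, edgeR adjusted p = 1.15e-06), and 2.43 against glia (SE 0.32, edgeR adjusted p = 2.28e-06). Mural cells were not tested against neurons. Except in pelvic 1 (72.7 against 99.9 CPM), gated mural cells had more Tbx2 than neurons of the same library. They had more Tbx3 than neurons in the stellate (43.1 against 39.9 CPM) and lumbar (53.4 against 27.7 CPM) libraries, and less in the others. Within mural-like cells the level of Tbx2 was 80.8 CPM in the cluster led by Rgs5 and Kcnj8, 135 CPM in the one led by Acta2, Tagln and Myh11, and 163 CPM in the one led by Rgs5 and Acta2, while Tbx3 was at 53.1, 57.8 and 64.6 CPM with overlapping intervals. The largest library made up 37.1% (pelvic 1), 69.35% (pelvic 1) and 31.7% (pelvic 2) of these clusters. Tbx2 in gated mural cells was also higher in every library of round 2 than in any of round 1. The Tbx2 difference between mural-like clusters thus cannot be told apart from library and round.

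Tbx3os1 was likewise higher in mural cells. Mural-like cells had 90.2 (stellate), 46.8 (sphenopalatine), 84.5 (pelvic 1), 125 (coeliac), 57.5 (lumbar) and 70.4 CPM (pelvic 2), against 0 to 2.27 CPM in fibroblast-like cells. The log2 fold change was 5.95 against fibroblasts (SE 0.47, edgeR adjusted p = 2.01e-09) and 5.46 against glia (SE 0.44, edgeR adjusted p = 1.77e-09). Where Tbx3 and Tbx3os1 overlap, their reads are told apart only by strand. Among the mural-like cells of round 1, those of the stellate library had the lowest Tbx3 level (20.5 CPM) and the highest Tbx3os1 level.

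Fibroblasts and endothelial cells had less Tbx2 than glia in 6 of 6 libraries each. The log2 fold changes were -1.52 (SE 0.26, n = 6 libraries, edgeR adjusted p = 3.16e-05) and -2.23 (SE 0.33, edgeR adjusted p = 6.28e-06). Tbx3 was higher in endothelial cells than in glia in 5 of 6 libraries, with a log2 fold change of 1.09 (SE 0.30, edgeR adjusted p = 0.00334), where 60.2% of genes were called, 28.1% as higher in endothelial cells and 32.0% as higher in glia, and that call was lost without the library block (edgeR adjusted p = 0.0626). Fibroblasts and glia did not differ past the threshold in Tbx3 (log2 fold change -0.20, SE 0.28, edgeR adjusted p = 0.55). Pelvic fibroblast-like cells had more Tbx3 than those of other ganglia of their round, at 11.2 against 4.45 and 7.25 CPM in round 1 and at 20.5 against 2.05 and 1.90 CPM in round 2, and likewise of Tbx2, at 19.7 against 8.05 and 8.46 CPM and at 25.4 against 11.7 and 9.01 CPM. Gated fibroblasts also held neuron markers, at a summed 2197 (stellate), 880 (sphenopalatine) and 843 CPM (pelvic 1) in round 1. In round 2 these were at 267 (coeliac), 260 (lumbar) and 235 CPM (pelvic 2). Neurons had much Tbx3 and Tbx2, and the part of neuronal RNA in these fibroblast levels was not tested.

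Summed over all libraries, gated endothelial cells had 10.1 CPM of Tbx1, against 0.776 CPM in fibroblasts and 1.16 CPM in mural cells. In the stellate and lumbar libraries gated fibroblasts had 2.08 and 4.30 CPM, near the endothelial-like levels given next. Gated mural cells there had 2.39 and 10.7 CPM, on 1 and 2 UMIs. Endothelial cells were not tested against fibroblasts or mural cells. Endothelial-like cells had 2.80 CPM (stellate, 6 UMIs), 9.62 CPM (sphenopalatine, 17 UMIs), 18.8 CPM (pelvic 1, 59 UMIs), 0.558 CPM (coeliac, 1 UMI), 5.61 CPM (lumbar, 7 UMIs) and 9.18 CPM (pelvic 2, 24 UMIs). Without the cells of highest doublet score the pelvic 2 level was 1.44 CPM, so most of it lay in those cells. Within endothelial-like cells, the 55 cells led by Cldn5, Eln and Gkn3, of which 72.7% came from pelvic 1, had 56.1 CPM (40.1 to 76.3), against 6.17 CPM (4.85 to 7.75) in the 670 cells led by Gpihbp1 and Pecam1. Glia of all libraries had 0 UMIs of Tbx1. Against a limit of 3 UMIs in the glia of a library, the counted level of gated endothelial cells was 7.82-fold (stellate), 19.0-fold (sphenopalatine), 41.8-fold (pelvic 1) and 21.5-fold (lumbar) higher. The coeliac library had no Tbx1 UMI in endothelial cells or glia, and the 3 UMIs of pelvic 2 gave no such ratio. Gated fibroblasts were 4.88-fold (stellate) and 13.2-fold (lumbar) above the limit. These ratios leave out the counting error of the few endothelial and fibroblast UMIs. Both classes were called (edgeR adjusted p = 4.91e-05 and 0.00913), and without pelvic 1 or without lumbar Tbx1 fell below the count filter and was not tested in either. The fibroblast call was lost in round 1 alone (edgeR adjusted p = 0.0924), and the UMIs of gated fibroblasts came mostly from the stellate (10) and lumbar (18) libraries. Mural cells had 3 UMIs of Tbx1 in all and were not called.

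Tbx20 showed no call between the non-neuronal classes. The log2 fold changes were 0.24 (mural cells against fibroblasts, SE 0.80, edgeR adjusted p = 0.866), -0.73 (mural cells against glia, SE 0.75, adjusted p = 0.485), -0.97 (fibroblasts against glia, SE 0.42, adjusted p = 0.0561) and -1.14 (endothelial cells against glia, SE 0.57, adjusted p = 0.0928). The last 2 passed the threshold without the cells of highest doublet score, at -1.06 (edgeR adjusted p = 0.0235) and -2.35 (adjusted p = 0.0027), and without pelvic 2, at -0.97 (adjusted p = 0.0457) and -1.70 (adjusted p = 0.0143).

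Tbx15 had most of its UMIs in fibroblast-like cells, chiefly those of 3 libraries, at 6.57 CPM (stellate, 31 UMIs), 3.17 CPM (sphenopalatine, 21 UMIs) and 5.46 CPM (lumbar, 23 UMIs). The pelvic 1 library had 0.680 CPM (5 UMIs), the pelvic 2 library 0.0953 CPM (1 UMI) and the coeliac library 0 UMIs. Pelvic and coeliac fibroblast-like cells were thus the lowest of their rounds. Gated fibroblasts were above gated mural cells in 4 of 6 libraries and below them in 1, the sphenopalatine library. Mural cells there had 9.92 CPM on 4 UMIs, against 3.03 CPM in fibroblasts. In the lumbar library they had 5.34 CPM on 1 UMI, against 5.50 CPM. Tbx15 was too low to be tested between these classes.

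Tbx5 and Tbx4, the limb members, had most of their few UMIs in the pelvic 2 library. Tbx5 had 15 UMIs in its fibroblast-like cells (1.43 CPM) and 1 in its mural-like cells. Tbx4 had 4 UMIs in fibroblast-like, 4 in mural-like (3.75 CPM) and 1 in endothelial-like cells of that library. The mural-like UMIs lay in the cluster led by Acta2, Tagln and Myh11, and gated mural cells had 0. Pelvic 1 fibroblast-like cells had 1 UMI of Tbx5 (0.136 CPM, interval 0.00344 to 0.758) and 0 of Tbx4 (at most 0.408 CPM), and pelvic 1 neurons had 1 UMI of Tbx4. The Tbx5 level of fibroblast-like cells thus lay higher in pelvic 2 than in pelvic 1, with intervals that did not overlap (0.800 to 2.36 CPM in pelvic 2), while the Tbx4 level of pelvic 2 (0.381 CPM) was below the limit for pelvic 1. These libraries differ in round, kit version and facility, from which the Tbx5 difference cannot be told apart.

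The genes whose levels were most like those of a member over the 38 sums of library and class, among 13530 genes, are given by Pearson's r of log2(CPM + 1), as a description over sums that share libraries and classes. For Tbx20 they were Hand1 (0.94), Amer2 (0.93) and Slc18a2 (0.93), the vesicular monoamine transporter. For Tbx18 they were Gli2 (0.96), a Hedgehog pathway factor, the chemokine gene Ccl11 (0.95) and Ebf2 (0.95). For Tbx2 they were Lgalsl (0.89), Klhl23 (0.87) and Trpc1 (0.86), and for Tbx3 Parm1 (0.86), Lin7a (0.82) and the potassium channel gene Kcna5 (0.81).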

How the data were processed

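Single-cell RNA sequencing tables of 6 libraries were used. The counts are whole UMIs per gene and cell barcode, and the authors deposited them as filtered matrices. The submitters' processing notes name Cell Ranger 6.0.1 and mm10. Cells with 1500 to 11000 genes and under 15% mitochondrial UMIs were kept, and neurons were taken by the study's threshold on sctransform values (0.4.2), a neuronal mean above 3, and by a glial mean under 1.15, a value set here at the low point between the modes of that mean. 226 cells of mixed markers were left out. The clusters (Leiden, resolution 1) named the classes whose levels are given, with myelinating Schwann-like clusters counted as glia-like. The tests used cells gated by markers alone, with at least 3 of 6 markers of a class and 2 more than of any other. Counts were summed per library and class of at least 20 cells and tested with edgeR 4.0.16 (quasi-likelihood, TMM, filterByExpr, library as a block, Benjamini-Hochberg over all genes, 0.05), DESeq2 1.42.0 being an alternative. The sums of glia, fibroblasts, mural and endothelial cells were fitted together, and each comparison of neurons had its own fit. With 1 library per ganglion except the pelvic, no test across ganglia was made. Thinning drew 4000 UMIs per neuron and left out neurons with fewer. No doublets were removed, but the 8% of cells with the highest Scrublet-type score were left out as an alternative. Scripts were tested on simulated data. GENCODE M21 gave positions.

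Members and gene lists were chosen with earlier results of these data known. The rule for named genes took the 8 members throughout, fixed lists by counts with the largest and smallest called values or those needed for a check, and the 3 genes most like each member with 200 UMIs or more, among genes reaching 10 CPM. The partner list was Gata4, Gata5, Gata6, Nkx2-5, Hand2, Sall4 and Tle1 to Tle5. A further list of neuronal transcription factors is not reported here.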

Additional observations from a re-analysis of the deposited data

Results flagged for a closer look

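The difference of Tbx2 between neurons and glia had another sign in the coeliac library than in the others. The log2 ratio of neuronal to glial CPM was 0.95 in the sphenopalatine, 0.77 in the pelvic 1, 0.48 in the lumbar and 0.91 in the pelvic 2 library, each with a 95% counting interval above 0, and -0.17 in the coeliac library, with an interval below 0. The stellate ratio was 0.19 and its interval reached 0. With 1 library per ganglion outside the pelvic ganglion, the difference between ganglia was not tested, and the coeliac value rests on the library with the fewest neurons (237). With levels taken as means over cells the coeliac direction turned, at 53.5 CPM in neurons against 46.7 CPM in glia-like cells.

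Tbx3 reached 254 CPM in 31 epithelial- or mesothelial-like cells led by Krt15, Krt14 and Epcam, a cell group that enters no comparison, and 96.8% of these cells came from pelvic 2. In 23 other cells of that name led by Upk3b and Krt19, mostly from pelvic 1, Tbx3 was at 9.51 CPM on 4 UMIs. The cells are too few in the other libraries for a comparison between ganglia.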

How the results depend on the processing

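The settings tried were other normalization, filter, tool, cell definitions and rounds, each library left out in turn, and no library block. Ganglia could not be paired with each other, as they share only the replicate number 1. Classes were paired within a library by the library block. The count of genes called between noradrenergic and cholinergic neurons was the least steady, from 34 to 607 without a filter, 598 with DESeq2, 4 in round 1, 0 in round 2, 0 without the library block, and 0 to 432 with a library left out (432 without sphenopalatine, 123 without lumbar, 0 without either pelvic library). Where edgeR called 0, an unadjusted p under 0.05 was reached by 1272 genes in round 2, 962 without the block, 986 without pelvic 1 and 971 without pelvic 2. Round 2 alone called 2726 genes between mural cells and fibroblasts (4339 in all), and fibroblasts against glia gave 4554 without the library block (7265 with it). All other counts stayed within 1.5 times. Among members not called, Tbx3 turned sign between transmitters without the block (0.048), with at least 10 transmitter UMIs (0.018), in round 1 (0.090) and without lumbar (0.11, the range with a library left out being -0.097 to 0.11). It also did between fibroblasts and glia without the block (0.028), without predicted doublets (0.056) and in round 2 (0.15), and without pelvic 2 it was -0.63 (edgeR adjusted p = 0.0423). Between mural cells and fibroblasts Tbx20 turned with classes from clusters (-0.13), in round 1 (-0.25), without lumbar (-0.12) and without pelvic 2 (-0.02, range with a library left out -0.12 to 0.43), and Tbx1 with clusters (-0.30) and in round 1 (-0.24). Calls gained were Tbx20 between transmitters without a filter (2.09, edgeR adjusted p = 0.0435), Tbx20 in endothelial cells against glia in round 1 (-1.96), Tbx18 in endothelial cells against glia with classes from clusters (2.31, edgeR adjusted p = 0.00304), and Tbx1 in mural cells against glia without a filter and with DESeq2. The cause of these changes was not tested. With classes from marker gates 38 of 240 levels moved past their counting interval. Depth limits Tbx4, Tbx5, Tbx15 and mural-like values most, which rest on few UMIs.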

Other observations

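Single cells were also compared within libraries, after the spread of Tbx3 and Tbx20 over neurons had been seen. The values are Pearson's r across neurons of a library between depth-normalised log values, without a test, since cells of a library share their source and sparse counts hold r down. In the 3 sympathetic libraries the genes with the highest r with Tbx3 in all of them were Myl1 (0.49 in stellate, 0.51 in coeliac and 0.52 in lumbar neurons), Syn2, a synaptic vesicle gene (0.47, 0.49 and 0.46), and Ngfr, the low-affinity neurotrophin receptor (0.43, 0.51 and 0.42). The lowest were Chga (-0.32, -0.46 and -0.51), Stmn1 and Foxp1. Over all 6 libraries the genes with the highest minimum were Gucy1a1, Cntn5 and the antisense gene Tbx3os1, at 0.29 or more throughout. Tlx2, a homeobox gene of autonomic neurons, stood at 0.28 or more with Tbx3 in every library, up to 0.52 in the sphenopalatine ganglion.

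In pelvic neurons the lowest r with Tbx20 was that of Vip, the gene of a peptide carried by some cholinergic neurons (-0.63 in pelvic 1 and -0.66 in pelvic 2), followed by Fam122b (-0.55 and -0.48) and Cartpt (-0.47 and -0.43). All of them are leading genes of the P1-like cluster, where Tbx20 was low, so these values are not separate from that cluster difference. In the sympathetic libraries the highest r with Tbx20 was that of Slc6a2, the noradrenaline transporter, at 0.34 in stellate, 0.42 in coeliac and 0.32 in lumbar neurons. The r of Tbx2 with Nrxn3, a gene of presynaptic adhesion, was 0.42 in pelvic 1 and 0.41 in pelvic 2, and at most 0.02 in a sympathetic library.

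Tbx21, a T-box gene known from T lymphocytes, was listed in neurons of every library at 0.460 to 1.64 CPM, and in glia-like, fibroblast-like and endothelial-like cells at no more than 0.294 CPM (0.425 CPM in gated glia). Mural-like cells had 1 UMI of Tbx21 in all, in the lumbar library (4.10 CPM, interval 0.104 to 22.9). Tested without a count filter, it was higher in neurons than in glia in 6 of 6 libraries (log2 fold change 3.27, SE 0.70, edgeR adjusted p = 0.0035). In that run 11739 of 24596 genes were called, 6192 of them as higher in neurons, so the call says little beside this background. Tbx6, another T-box gene outside the members, was lower in neurons than in gated glia in 6 of 6 libraries. It was at 0.0395 to 0.278 CPM in neurons and 0.142 to 0.511 CPM in gated glia, so the ranges overlapped. The limit of 3 UMIs in gated glia was 0.306 CPM (coeliac) to 0.601 CPM (pelvic 1), so the glial values rest on few UMIs. With the count filter Tbx6 was too low to be tested.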
